A study of Mus musculus with 8 samples.

Results

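Transcripts of 43 genes of DNA replication and nucleotide supply were described in cardiac fibroblasts taken from mice and exposed to TGF-β. The genes were taken by symbol from known licensing factors, helicase subunits, polymerases, clamp loaders, enzymes of nucleotide synthesis and factors that rebuild chromatin behind the fork, and all 43 were found among the 22274 genes of the table. The study asked how IRF7, an interferon regulatory factor, alters fibroblasts that turn into myofibroblasts, and sequenced RNA from 8 libraries of heart fibroblasts. The 4 libraries labelled GFP carried the control virus, called an empty vector in the study's results. The 4 libraries labelled OEIRF7 carried the virus for IRF7 overexpression. Both groups received TGF-β, given in the study's figure legend as 5 ng/ml for 24 h, so that no untreated group was compared. The methods name an adenovirus whose IRF7 insert is listed as human and driven by the CMV promoter, whereas the deposited design text names an adeno-associated virus. The age, sex and strain of the mice that gave the cells were not given for these libraries in the sources used here. The legend that covers this experiment and others ends on 3 biological replicates without saying which experiments it means, 4 libraries of each group were deposited, and whether these 4 came from separate cultures or animals was not stated, so p-values measure only the spread between these libraries, which may be technical.

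Origins are licensed for DNA replication in G1, when the origin recognition complex, Cdc6 and Cdt1 load the Mcm2 to Mcm7 helicase ring onto them. In S phase, Cdc45 and the GINS complex switch the helicase on, primase and polymerase alpha lay down primers, and polymerases delta and epsilon copy the strands on a sliding clamp of PCNA that the RFC complex loads. The deoxynucleotides come from ribonucleotide reductase, thymidylate synthase and thymidine kinase. Many of these genes are switched on before S phase by E2F factors, while genes of mitosis are switched on later through a promoter element called the cell cycle genes homology region (CHR), and TGF-β is known to restrain the growth of many cell types and to turn fibroblasts into matrix-producing myofibroblasts.

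The promoters are shown first because E2F sites and CHR elements are the sequence features by which these gene classes are usually told apart. RefSeq promoters of 300 bases, 250 before the transcript start and 50 from it, in build GRCm38.p6, were matched by symbol for 36 of the 43 genes, with 42 windows in all. None was matched for Gins1, Gins2, Gins4, Mcm4, Pole, Prim2 or Rfc2. The E2F motif was searched on both strands as TTTCGCGC, TTTGGCGC, TTTCCCGC or TTTGCCGC. It was found in 14 of the 42 windows (33.3%), against 744 of 32851 windows of all genes (2.26%). In other genes of the pathway, described further below, it was found in 15 of 83 windows (18.1%). The windows below belong to the 3 genes with an E2F match and the largest change of expression and to the 3 with the smallest change, each written 5′ to 3′ on the strand of the gene, with the E2F match in capitals. They lie at chr11:98907901-98908200 (Cdc6, plus strand), chr8:122567765-122568064 (Cdt1, plus strand), chr4:108579204-108579503 (Orc1, plus strand), chr12:69228141-69228440 (Pole2, minus strand), chr17:56304063-56304362 (Uhrf1, plus strand) and chr8:95633309-95633608 (Gins3, plus strand).
Cdc6: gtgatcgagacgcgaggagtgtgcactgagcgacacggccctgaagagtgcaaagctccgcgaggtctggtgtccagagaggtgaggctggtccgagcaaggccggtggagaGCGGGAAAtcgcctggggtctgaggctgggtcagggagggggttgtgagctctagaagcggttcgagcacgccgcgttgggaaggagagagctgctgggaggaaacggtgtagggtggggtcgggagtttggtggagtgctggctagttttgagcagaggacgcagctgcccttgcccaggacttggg
Cdt1: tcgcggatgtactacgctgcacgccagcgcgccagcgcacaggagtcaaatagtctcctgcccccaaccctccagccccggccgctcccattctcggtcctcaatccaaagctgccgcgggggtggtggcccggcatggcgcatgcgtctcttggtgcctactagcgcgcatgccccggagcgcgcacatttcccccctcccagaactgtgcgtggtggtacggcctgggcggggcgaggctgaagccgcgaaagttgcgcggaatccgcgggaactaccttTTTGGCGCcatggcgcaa
Orc1: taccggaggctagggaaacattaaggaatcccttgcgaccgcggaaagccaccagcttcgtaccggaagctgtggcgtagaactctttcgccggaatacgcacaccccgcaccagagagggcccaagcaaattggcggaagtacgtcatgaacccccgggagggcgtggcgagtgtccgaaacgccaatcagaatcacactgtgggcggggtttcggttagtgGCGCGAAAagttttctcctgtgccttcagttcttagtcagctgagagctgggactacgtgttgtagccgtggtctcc
Pole2: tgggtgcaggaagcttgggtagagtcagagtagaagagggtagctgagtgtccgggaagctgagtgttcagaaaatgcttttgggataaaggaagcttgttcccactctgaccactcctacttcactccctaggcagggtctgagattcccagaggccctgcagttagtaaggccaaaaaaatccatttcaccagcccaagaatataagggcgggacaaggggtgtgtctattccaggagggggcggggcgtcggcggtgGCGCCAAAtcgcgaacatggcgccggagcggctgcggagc
Uhrf1: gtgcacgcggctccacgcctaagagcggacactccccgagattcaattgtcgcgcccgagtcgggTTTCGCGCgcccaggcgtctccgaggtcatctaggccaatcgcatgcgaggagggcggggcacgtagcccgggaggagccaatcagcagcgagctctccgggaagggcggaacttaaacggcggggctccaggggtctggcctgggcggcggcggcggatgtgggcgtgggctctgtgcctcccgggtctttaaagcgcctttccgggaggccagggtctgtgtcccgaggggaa
Gins3: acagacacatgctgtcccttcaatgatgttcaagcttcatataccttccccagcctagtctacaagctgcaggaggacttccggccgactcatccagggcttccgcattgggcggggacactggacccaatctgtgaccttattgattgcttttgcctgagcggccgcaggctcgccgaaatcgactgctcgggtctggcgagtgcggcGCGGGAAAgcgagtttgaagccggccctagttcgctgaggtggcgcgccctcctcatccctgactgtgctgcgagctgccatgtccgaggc
Counted from 0 at the first base of the transcript, the first base of the match lay at -138 in Cdc6, 32 in Cdt1, -27 in Orc1, 10 in Pole2, -185 in Uhrf1 and -41 in Gins3. Cdc6 was lower and Cdt1 and Orc1 higher in the libraries labelled OEIRF7, and Pole2, Uhrf1 and Gins3 did not pass the test. These 6 windows were picked by size of change, so the difference in size among them was set by that choice. For contrast, the window of Ccnb2, a cyclin of mitosis that is not among the 43 genes, is given with its CHR matches (TTTGAA or TTCGAA, both strands) in capitals. It is the mitosis gene with a CHR match and the largest fall, it lies at chr9:70421505-70421804 on the minus strand, and it was chosen after its values were seen.
Ccnb2: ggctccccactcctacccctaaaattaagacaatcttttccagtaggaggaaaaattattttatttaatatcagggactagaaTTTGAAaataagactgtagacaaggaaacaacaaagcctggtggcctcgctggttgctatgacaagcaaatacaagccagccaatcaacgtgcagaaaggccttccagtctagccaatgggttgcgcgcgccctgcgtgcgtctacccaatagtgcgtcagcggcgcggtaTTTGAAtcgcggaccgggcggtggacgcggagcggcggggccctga

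The 14 genes with an E2F match were Cdc6, Cdt1, Orc1, Mcm3, Mcm5, Mcm6, Mcm7, Gins3, Pola1, Pold1, Pole2, Rfc3, Lig1 and Uhrf1. A match is a description of letters and not a binding site. Of these 14 genes, 4 were lower and 3 higher in the libraries labelled OEIRF7 at an adjusted p under 0.05, against 29.9% lower and 29.0% higher among all genes tested, with a median log2 fold change of -0.04. Of the 22 genes with a window and no match, 10 were lower and 3 higher, with a median of -0.17, and the difference between these sets was not tested. The CHR was found in 7 of the 42 windows (16.7%), close to the 19.2% of all windows, and in 14 of 18 windows of mitosis genes (77.8%). A CCAAT box, the motif of the factor NF-Y, searched as CCAAT on both strands, was in 59.5% of the windows of the replication and nucleotide supply genes, 88.9% of those of mitosis genes and 37.4% of all. An element of the kind that IRF factors bind, searched as GAAANNGAA on both strands, was in 2 of the 42 windows (4.76%), those of Pold2 and Slbp, and in 8.56% of all windows. The E2F forms TTTCGCGC and TTTCCCGC hold GAAA on the reverse strand, as the IRF element does, and could share those bases with it, and windows of alternative starts of 1 gene may overlap.

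**Figure D1:**
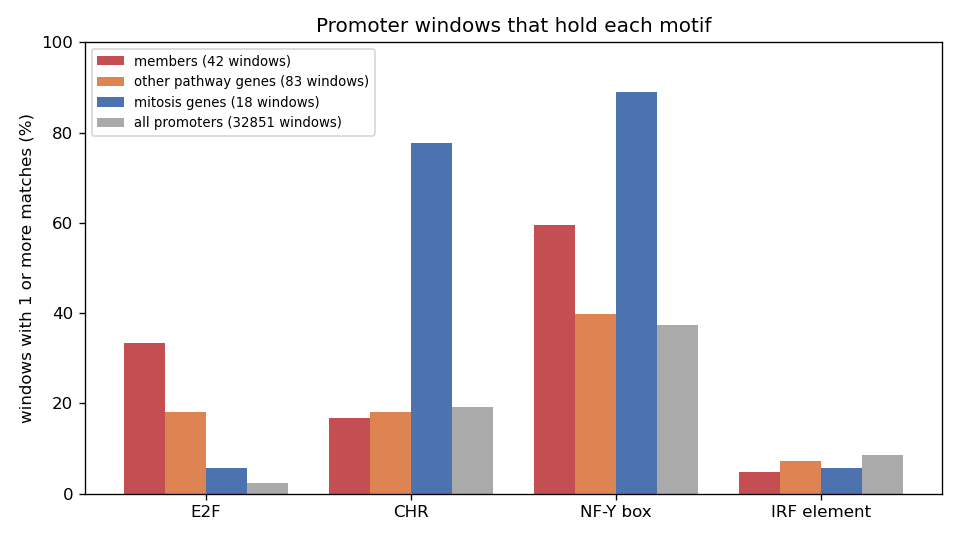
Share of promoter windows (%, vertical axis) with at least 1 match to each motif on either strand, for the replication and nucleotide supply genes (members), the other genes of the pathway, the mitosis genes and all promoters. E2F matches were in 33.3% of the members' windows, 18.1% of those of the other genes of the pathway and 2.26% of all. CHR matches were in 77.8% of the windows of mitosis genes and 16.7% of the members' windows. The NF-Y box is CCAAT.

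The libraries held 24454801 to 28658826 counted reads each. Levels are given as reads per 1000000 counted reads of the tested genes (CPM), with library sizes scaled by the TMM factors given below. Mouse Irf7, the targeted gene, had 107, 147, 92 and 126 CPM in the GFP libraries and 14.9, 14.5, 14.9 and 16.4 in the libraries labelled OEIRF7. The mouse gene was thus lower under the overexpression label. How far reads of a human insert were counted under the mouse gene was not tested. Fibroblast markers such as Col1a1, Col1a2 and Vim were abundant, with all 11 listed markers summing to 17472 to 18059 CPM in the GFP libraries and 15887 to 16883 in the libraries labelled OEIRF7. Of the 11, 7 were lower and 2 higher in the libraries labelled OEIRF7, against 29.9% and 29.0% of all genes tested. The largest change was that of Tcf21, which the study's introduction names as a label of quiescent cardiac fibroblasts. Its mean was 58.3 CPM in GFP and 23.1 CPM in the libraries labelled OEIRF7 (log2 fold change -1.33, adjusted p = 2.04e-08 from edgeR). Of the 7 cardiomyocyte markers, 6 had group means of at most 0.299 CPM, with Myh6 and Myh7 at 0 in every library labelled OEIRF7. The remaining one, Tnnt2, had 11.8, 13.3, 10.9 and 9.46 CPM in the GFP libraries and 8.95, 7.72, 7.34 and 7.10 CPM in the libraries labelled OEIRF7 and was lower (log2 fold change -0.54, adjusted p = 0.000575). The macrophage markers summed to 267 to 317 and 324 to 362 CPM, endothelial markers to 194 to 205 and 193 to 216, mural cell markers to 28 to 33.3 and 67.3 to 82.5, and epicardial markers to 72.4 to 88.6 and 58.3 to 65.8. Genes within the endothelial, mural and epicardial lists went opposite ways. Kdr (a ratio of OEIRF7 to GFP of 1.73) and Emcn (1.22) were higher and Cdh5 (0.926) lower among the endothelial markers, and Pecam1 and Tek did not pass. Cspg4 (2.83) and Rgs5 (1.66) were higher and Myh11 (0.507) lower among the mural markers. Krt19 (3.89) and Msln (1.14) were higher and Upk3b (0.401) lower among the epicardial ones. Of the 6 macrophage markers, 3 were higher and 0 lower, against 29.0% and 29.9% of all genes tested. These were Adgre1 (1.35), Lyz2 (1.17) and Cd68 (1.16, with groups that overlapped), while Ptprc, Csf1r and C1qa did not pass. These markers were named after their values were seen. The part of these cell types in the results that follow was not tested. In bulk RNA, fewer cells in S phase and less RNA of a gene per cell cannot be told apart.

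Of the 43 genes, 15 were lower and 6 higher in the libraries labelled OEIRF7, and 22 did not pass an adjusted p under 0.05 (edgeR's quasi-likelihood test with Benjamini-Hochberg adjustment over all 13533 genes tested). Among all genes, 29.9% were lower and 29.0% higher, so the 34.9% of these genes that were lower lay near the background, and the 14% that were higher lay below it. With limma on log2(FPKM + 1), 9 were lower and 8 higher, since Cdc6 (adjusted p = 0.0785), Mcm7 (0.141), Pole (0.404), Mcm10, Rfc5, Rpa1 and Chaf1a no longer passed and Dut, which was lower, and Pcna and Rfc4, which were higher, did. Of all 14182 genes tested with limma in this way, 3309 were lower and 4093 higher. All 43 genes passed the filter on low counts. Their log2 fold changes, OEIRF7 minus GFP, ran from -0.99 for Tk1 to 0.78 for Cdt1 with a median of -0.06, beside a median of 0.0015 over all genes, and 29 of 43 were below 0. Changes past 1.5-fold were seen for Tk1, Cdc6, Prim1 and Tyms, which were lower (4 of 43, against 9.64% of all genes), and for Cdt1, which was higher (1 of 43, against 9.26%). Every library of one group lay apart from every library of the other in 17 genes, with OEIRF7 lower in 11 and higher in 6, against 27.0% and 26.8% of all genes. Rfc4 was among the 6 although it missed the adjusted threshold. For each of these 17 genes an exact permutation test on log2 CPM, two-sided, gave p = 0.0286, the smallest p that 4 against 4 libraries allow.

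**Figure D2:**
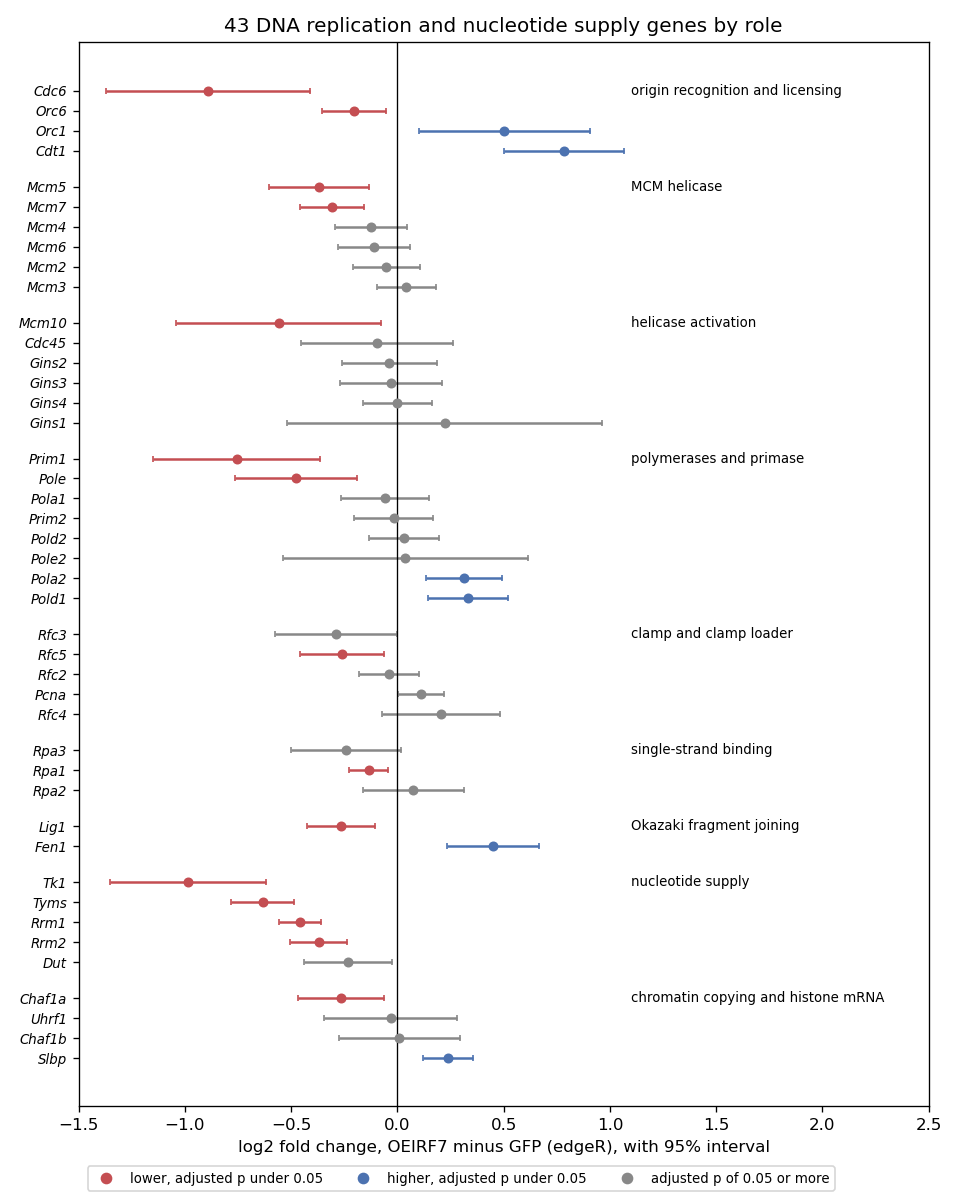
Log2 fold change (OEIRF7 minus GFP, horizontal axis) of the 43 genes by role, with 95% intervals from edgeR's fit to 4 libraries per group. The 15 red points were lower and the 6 blue points higher at an adjusted p under 0.05. All 5 nucleotide supply genes lie below 0, whereas the licensing factors span -0.89 to 0.78.

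For the 22 genes that did not pass, the 95% interval of the log2 fold change shows how large a change could have gone unseen. In 20 of the 22 the interval lay within 1.5-fold in both directions, and the exceptions were Gins1 and Pole2. Among all genes that did not pass, 75% had an interval within 1.5-fold. The lowest count of any of the 43 genes in any library was 11, and standard errors of the log2 fold change ran from 0.04 to 0.35.

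The licensing factors, which mark and load origins, moved in opposite directions. Cdc6, the ATPase that brings the helicase to the origin recognition complex, had 1.94, 1.40, 2.19 and 1.72 CPM in the GFP libraries and 1.24, 0.827, 0.864 and 0.973 CPM in the libraries labelled OEIRF7, without overlap. Its log2 fold change was -0.89 (SE 0.22, adjusted p = 0.00327). Cdt1, the partner of Cdc6 in loading the helicase, had 2.80, 4.17, 2.96 and 3.20 CPM in the GFP libraries and 5.39, 5.89, 5.61 and 5.68 CPM in the libraries labelled OEIRF7. All 4 libraries labelled OEIRF7 were above every GFP library, with a log2 fold change of 0.78 (SE 0.13, adjusted p = 0.000128). Orc6, the smallest subunit of the origin recognition complex, fell less, with 12, 12.6, 13.4 and 11.9 CPM in the GFP libraries and 11.1, 10.9, 11 and 10.3 CPM in the libraries labelled OEIRF7, a log2 fold change of -0.21 (SE 0.07, adjusted p = 0.021). Orc1, its ATPase subunit, was higher by a log2 fold change of 0.50 (adjusted p = 0.0324), but the groups overlapped, with 2.09, 2.60, 1.62 and 1.83 CPM against 2.48, 2.65, 2.83 and 3.61 CPM. The calls of Orc1 and Orc6 rested on single libraries, since the adjusted p of Orc1 rose to 0.111 without replicate 4 of the libraries labelled OEIRF7, to 0.0898, 0.0806 and 0.0542 without GFP replicates 3, 4 and 1, and that of Orc6 to 0.0673 without GFP replicate 3 and 0.0542 without OEIRF7 replicate 4. Geminin (Gmnn), the inhibitor of Cdt1 and not one of the 43 genes, did not pass the test (log2 fold change -0.21, adjusted p = 0.23). On the per-length scale of FPKM (fragments scaled for transcript length and library depth), the ratio of Gmnn to Cdt1 was 3.17, 1.62, 2.54 and 2.34 in the GFP libraries and 1.14, 1.09, 1.12 and 1.13 in the libraries labelled OEIRF7, without overlap.

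The subunits of the helicase ring moved little. Mcm5 changed most, with 5.93, 6.89, 7.29 and 7.17 CPM in the GFP libraries and 4.73, 5.24, 6.09 and 5.03 CPM in the libraries labelled OEIRF7, of which 3 were below every GFP library and 1 was not. Its log2 fold change was -0.37 (SE 0.11, adjusted p = 0.00937). Mcm7 was lower without overlap, with 17, 15.5, 17.6 and 15.9 CPM against 12.8, 13.2, 14.6 and 12.8 CPM, a log2 fold change of -0.31 and an adjusted p of 0.00163. The other subunits did not pass the test. Mcm3 had 18.6, 16.1, 18 and 18.3 CPM in the GFP libraries and 17.6, 17.7, 18.8 and 19.1 CPM in the libraries labelled OEIRF7, and the 95% interval of its log2 fold change, -0.10 to 0.18, included 0. The intervals were -0.21 to 0.10 for Mcm2, -0.29 to 0.04 for Mcm4 and -0.28 to 0.06 for Mcm6. The ring holds 1 copy of each subunit, but the transcripts were not equal in level. In every library Mcm5 was the lowest of the 6 in FPKM, at 2.22 to 2.60 in GFP and 1.75 to 2.19 in the libraries labelled OEIRF7, and Mcm4 or Mcm7 was the highest. The highest exceeded the lowest by 2.80 to 3.90 times in the GFP libraries and 3.39 to 4.37 times in the libraries labelled OEIRF7, and these ranges overlapped.

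Among the factors that activate the helicase, 1 of 6 passed the test and was lower, against 29.9% lower and 29.0% higher among all genes tested. Mcm10, which helps the ring start to unwind, had 1.34, 1.64, 2.31 and 1.53 CPM in the GFP libraries and 1.09, 1.21, 0.982 and 1.34 CPM in the libraries labelled OEIRF7. The groups met at 1.34 CPM without overlap at full precision. In FPKM they overlapped, with 0.37 in GFP replicate 1 and 0.39 in replicate 4 of the libraries labelled OEIRF7. The log2 fold change was -0.56 (SE 0.23, adjusted p = 0.045). This call was lost with DESeq2 (adjusted p = 0.061), with the replicate block (0.0628), and without GFP replicate 2, 3 or 4 or OEIRF7 replicate 1, 2 or 3, most of all GFP replicate 3, the highest, without which the log2 fold change was -0.38 (adjusted p = 0.171). Gins4, a subunit of the GINS complex, had 14, 15.5, 15.5 and 13.8 CPM in the GFP libraries and 15.9, 14.5, 13 and 15.4 CPM in the libraries labelled OEIRF7, with a log2 fold change of -0.0014 and an interval of -0.16 to 0.16. Cdc45, the other activator of the ring, had an interval of -0.46 to 0.26, and the GINS subunits Gins2 and Gins3 had intervals of -0.26 to 0.19 and -0.27 to 0.21. Gins1 was the lowest of the 43 genes in mean CPM, with 0.411, 0.481, 0.486 and 0.839 CPM against 0.465, 0.620, 1.02 and 0.487 CPM, and its interval was wide, at -0.52 to 0.96. Of the exonic bases of Gins2, 67.3% overlap Gse1 on the opposite strand. Gse1 had a log2 fold change of 0.32, and because the strand setting of the counting was not stated, reads of this pair may not be told apart.

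Primase and the polymerases split as well. Prim1, the catalytic subunit of primase, had 3.17, 2.24, 2.23 and 2.90 CPM in the GFP libraries and 1.36, 1.72, 1.49 and 1.66 CPM in the libraries labelled OEIRF7, without overlap, and a log2 fold change of -0.76 (SE 0.18, adjusted p = 0.0025). Prim2, its partner subunit, had 10.6, 12.6, 13.6 and 14.3 CPM in the GFP libraries and 12.7, 12.7, 12.7 and 12.2 CPM in the libraries labelled OEIRF7. Its log2 fold change was -0.02 with an interval of -0.20 to 0.17. The ratio of Prim1 to Prim2 in FPKM was 0.205 to 0.374 in the GFP libraries and 0.133 to 0.170 in the libraries labelled OEIRF7. Pole, the catalytic subunit of the leading-strand polymerase epsilon, had 7.31, 5.85, 7.25 and 6.41 CPM against 3.92, 5.86, 4.20 and 5.23 CPM, with 3 of 4 libraries labelled OEIRF7 below every GFP library and a log2 fold change of -0.48 (adjusted p = 0.00676). Its partner Pole2 had an interval of -0.54 to 0.61. Both genes that were higher belong to other polymerases. Pold1, the catalytic subunit of polymerase delta, had 6.90, 6.41, 7.25 and 6.60 CPM against 8.41, 9.41, 8.01 and 8.31 CPM and rose by a log2 fold change of 0.33 (adjusted p = 0.0046). Pola2, the accessory subunit of polymerase alpha, had 10.7, 12.4, 11.6 and 10.3 CPM against 15.6, 12.9, 13.7 and 13.7 CPM and rose by 0.31 on the same scale (adjusted p = 0.0047). Their partners did not pass, with intervals of -0.27 to 0.15 for Pola1, the catalytic subunit of polymerase alpha, and -0.13 to 0.19 for Pold2 of polymerase delta.

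Of the sliding clamp, its loader and the proteins that coat single strands, 2 of 8 genes passed the test, and both were lower. Among all genes tested, 29.9% were lower and 29.0% higher. Pcna, the clamp, had 36.5, 34.4, 37 and 34.9 CPM in the GFP libraries and 36.3, 39.1, 41.3 and 37.3 CPM in the libraries labelled OEIRF7, of which 3 lay above every GFP library. Its log2 fold change was 0.11 (adjusted p = 0.0786), and it passed without scaling beyond library size (adjusted p = 0.0291). Its reads may be shared with the pseudogenes Pcna-ps1 and Pcna-ps2, so its level is uncertain. Among the loader subunits, Rfc3 had the largest log2 fold change, -0.29 (SE 0.13, adjusted p = 0.0782), from 4.48, 5.53, 5.75 and 4.65 CPM in the GFP libraries and 4.54, 3.34, 4.48 and 4.38 CPM in the libraries labelled OEIRF7. Rfc2 had the smallest, with 18, 19.6, 20.5 and 18.5 CPM against 20.3, 17.8, 17.9 and 18.4 CPM and an interval of -0.18 to 0.10. Rfc5 was lower, with 8.21, 8.09, 8.22 and 7.70 CPM against 7.52, 6.17, 6.20 and 7.01 CPM without overlap and a log2 fold change of -0.26 (adjusted p = 0.0236), a call lost without GFP replicate 1 or OEIRF7 replicate 2 or 3 (adjusted p up to 0.0717). Rfc4 lay higher in all 4 libraries labelled OEIRF7, with 2.69, 2.80, 2.80 and 2.71 CPM against 3.29, 3.07, 3.18 and 3.12 CPM, and did not pass (log2 fold change 0.20, adjusted p = 0.19). The exons of Rfc4 overlap Eif4a2 on the opposite strand over 12.7% of their bases, and Eif4a2 was lower, at -0.93 on the log2 scale.

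The replication protein A genes encode the complex that covers unwound strands. Rpa1, its large subunit, was the highest of the 43 genes per length and had 156, 146, 169 and 156 CPM in the GFP libraries and 144, 137, 144 and 147 CPM in the libraries labelled OEIRF7. Its log2 fold change of -0.13 (SE 0.04, adjusted p = 0.0144) was the smallest that passed, the groups overlapped, and without GFP replicate 3 the adjusted p was 0.0568. Rpa3 had 5.78, 6.65, 5.31 and 5.87 CPM against 5.43, 4.62, 4.24 and 5.72 CPM, a log2 fold change of -0.24 and an adjusted p of 0.0996. Rpa2 had 6.08, 6.09, 6.81 and 6.37 CPM against 6.94, 5.45, 7.70 and 6.65 CPM and an interval of -0.16 to 0.31. No subunit of the complex changed past 1.5-fold, and the interval of each excluded such a change.

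Okazaki fragments, the short pieces of the lagging strand, are trimmed and then joined, and the 2 genes of these steps moved in opposite directions. Lig1, the ligase, had 12.1, 11.9, 12.8 and 13.8 CPM in the GFP libraries and 10.8, 9.93, 10.9 and 10.4 CPM in the libraries labelled OEIRF7, without overlap, and a log2 fold change of -0.27 (SE 0.07, adjusted p = 0.00649). Fen1, the flap endonuclease, had 8.17, 9.13, 8.47 and 11.5 CPM in the GFP libraries and 13.3, 12.7, 13.1 and 11.8 CPM in the libraries labelled OEIRF7, also without overlap, and a log2 fold change of 0.45 (SE 0.10, adjusted p = 0.00135). Of the exonic bases of Fen1, 78.8% overlap Gm10143 on the opposite strand, a gene without a row in the table, so with an unstated strand setting the rise of Fen1 is uncertain.

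The enzymes of nucleotide supply were the role in which the largest share fell, 4 of 5, against 29.9% of all genes tested. Tk1, the thymidine kinase of the salvage pathway (chr11:117815526-117826092, minus strand), had 2.91, 3.37, 2.39 and 2.75 CPM in the GFP libraries and 1.32, 1.55, 1.45 and 1.42 CPM in the libraries labelled OEIRF7. The groups lay far apart, and the log2 fold change was -0.99 (SE 0.17, adjusted p = 0.000169), the largest of the 43. Tyms, thymidylate synthase (chr5:30058202-30073617, minus strand), had 24.5, 27.5, 24.8 and 25.4 CPM in the GFP libraries and 15.3, 18.3, 16.5 and 15.5 CPM in the libraries labelled OEIRF7. Its log2 fold change was -0.63 (SE 0.07, adjusted p = 1.59e-06), and its level is uncertain because reads may be shared with the pseudogene Tyms-ps. Rrm1, the large subunit of ribonucleotide reductase (chr7:102441695-102469771, plus strand), had 139.8, 145, 135 and 147 CPM in the GFP libraries and 109, 101, 94.6 and 108 CPM in the libraries labelled OEIRF7, and a log2 fold change of -0.46 (SE 0.05, adjusted p = 7.56e-07). Rrm2, the small subunit (chr12:24708241-24714146, plus strand), had 18.1, 18.7, 17.7 and 17.8 CPM in the GFP libraries and 13.1, 14.8, 13.8 and 14.4 CPM in the libraries labelled OEIRF7, and a log2 fold change of -0.37 (SE 0.06, adjusted p = 0.000123). Both subunits of the reductase were thus lower in 4 of 4 libraries labelled OEIRF7. Dut, which clears dUTP, was below every GFP library in 3 of 4, with 6.90, 7.73, 7.94 and 8.16 CPM against 6.63, 5.96, 6.28 and 7.34 CPM, and did not pass (log2 fold change -0.23, adjusted p = 0.052). The calls of Tk1, Tyms, Rrm1 and Rrm2 held under every alternative tried. The summed CPM of the 5 genes, most of it Rrm1, was 188 to 202 in the GFP libraries and 133 to 146 in the libraries labelled OEIRF7.

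**Figure D3:**
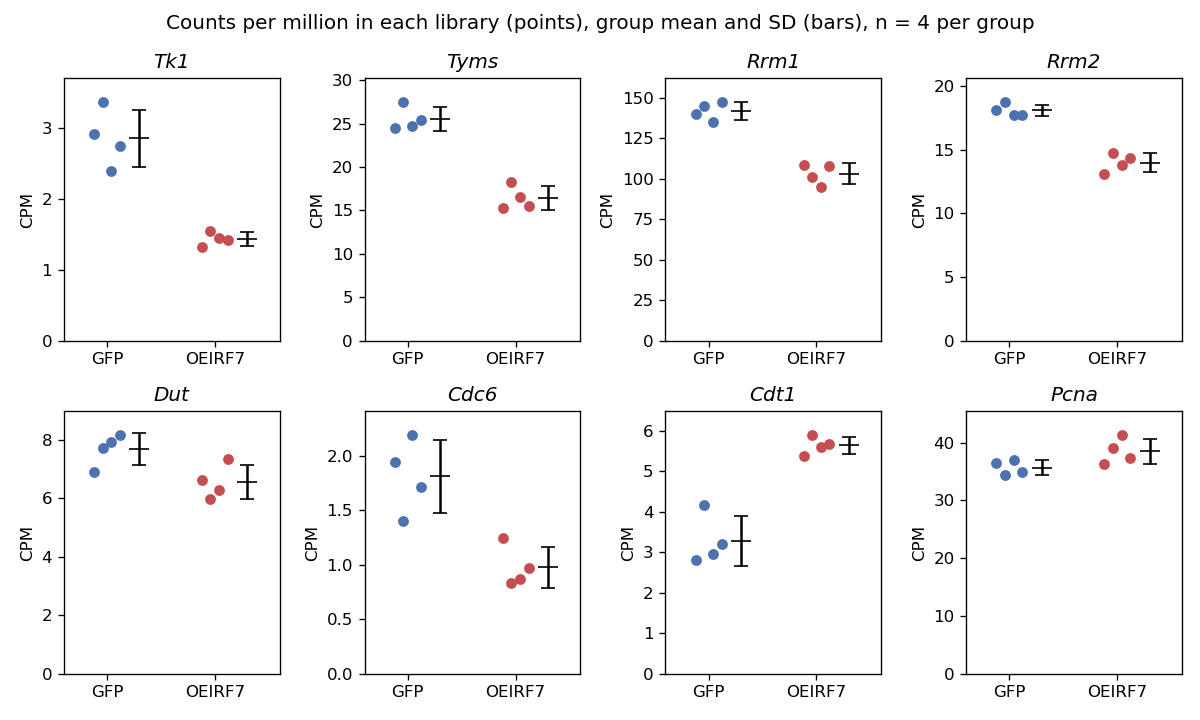
CPM (vertical axis, from 0) of 8 genes in each library (points), with the group mean and SD (bars, n = 4). Tk1, Tyms, Rrm1, Rrm2 and Cdc6 are lower and Cdt1 is higher in all 4 libraries labelled OEIRF7, and the groups of Dut and Pcna overlap.

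Ribonucleotide reductase also has a form that works outside S phase, with Rrm2b in place of Rrm2. The ratio of Rrm2b to Rrm2 in FPKM was 0.893, 0.930, 0.900 and 0.896 in the GFP libraries and 1.31, 1.11, 1.01 and 1.05 in the libraries labelled OEIRF7, so that per length Rrm2 lay above Rrm2b in every GFP library and below it in every library labelled OEIRF7, by little in replicate 3. Rrm2b was itself lower (log2 fold change -0.16, adjusted p = 0.0272), with groups that overlapped, and in CPM, which is not scaled for length, it lay above Rrm2 in all 8 libraries. Rrm2 to Rrm1 did not separate the groups, at 0.224 to 0.244 and 0.202 to 0.266. Tk1, the cytosolic kinase, was lower per length than the mitochondrial kinase Tk2 in every library, at 0.208 to 0.311 of its level in GFP and 0.140 to 0.189 in the libraries labelled OEIRF7. Tk2 itself was lower (log2 fold change -0.45, adjusted p = 0.000327).

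Of the genes that rebuild chromatin behind the fork, Chaf1a was lower and Slbp higher. Chaf1a, the large subunit of the histone chaperone CAF-1, had 11.9, 9.86, 12.6 and 10.8 CPM in the GFP libraries and 8.72, 9.51, 8.68 and 10.5 CPM in the libraries labelled OEIRF7, with overlap, and a log2 fold change of -0.27 (SE 0.09, adjusted p = 0.025). That call was lost without GFP replicate 1 or 3 or OEIRF7 replicate 1 or 3 (adjusted p up to 0.0825), and 52.5% of its exonic bases overlap Ubxn6 on the opposite strand. Chaf1b, the next subunit of CAF-1, had 4.40, 3.04, 3.89 and 3.81 CPM against 3.72, 3.69, 3.93 and 3.93 CPM and an interval of -0.28 to 0.29. Slbp, which binds the stem-loop of histone mRNAs, had 19.6, 20.8, 20.5 and 19.9 CPM in the GFP libraries and 24.1, 22.9, 25.3 and 23 CPM in the libraries labelled OEIRF7, without overlap, and rose by a log2 fold change of 0.24 (SE 0.06, adjusted p = 0.00195). Uhrf1, which guides the copying of DNA methylation, varied between 4.70 and 7.24 CPM in the GFP libraries, and its interval was -0.34 to 0.28.

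Compared per length, the levels of the 43 genes spanned a wide range. In the GFP libraries mean FPKM ran from 0.475 for Mcm10 to 50.4 for Rpa1 with a median of 3.84, and in the libraries labelled OEIRF7 the median was 3.75. After Rpa1 came Rrm1 at 35.7, Pcna at 23.3 and Tyms at 20.3 FPKM in the GFP libraries. In the libraries labelled OEIRF7 these stood at 27.2, 25.6 and 13.4 FPKM, and the ranges of Rrm1 and Pcna over libraries, which lay apart in GFP, overlapped. Beside Mcm10 (mean FPKM 0.475 in GFP and 0.318 in the libraries labelled OEIRF7), Gins1, Cdc6 and Orc1 were lowest, at 0.502, 0.525 and 0.670 FPKM in GFP. The summed CPM of all 43 genes was 704 to 734 in the GFP libraries and 635 to 657 in the libraries labelled OEIRF7. These sums rest largely on Rpa1 and Rrm1, with mean CPM of 157 and 142 in GFP and 143 and 103 in the libraries labelled OEIRF7. The median log2 fold change of the 43 genes was -0.06.

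Other genes of the pathway, listed by the same roles, divided without one direction, and the pairs of values in parentheses here and in the following paragraphs are the log2 fold change and the adjusted p from edgeR. Of 34 further origin and fork genes, 33 were tested (Dscc1 was too thinly counted), with 10 lower, 5 higher and a median log2 fold change of -0.12. Among all genes tested, 29.9% were lower and 29.0% higher. Those that changed most were Ticrr, which helps to recruit Cdc45 to origins (-1.26, from 1.38, 1.32, 1.94 and 1.91 CPM to 0.581, 0.517, 0.864 and 0.770 CPM, adjusted p = 0.000562), and Clspn, the checkpoint adaptor claspin (-1.20, from 3.13, 2.48, 3.48 and 3.59 CPM to 1.55, 1.38, 0.942 and 1.66 CPM, adjusted p = 0.000119). Both were lower by more than 2-fold, a change seen in none of the 43 genes and in 3.89% of all. Mcm8, a helicase of recombination repair, had a log2 fold change of -0.67, Orc3, a subunit of the origin recognition complex, one of -0.54, and Wdhd1, which ties polymerase alpha to the helicase, one of 0.38 (adjusted p = 0.0196, 3.85e-07 and 0.0447). Rfc1, the large subunit of the clamp loader, was higher by 0.28 (adjusted p = 0.000176), and the FPKM of Rfc3 relative to Rfc1 was 0.325 to 0.418 in GFP and 0.204 to 0.268 in the libraries labelled OEIRF7. Of 12 further genes of chromatin copying, the histone chaperone gene Asf1b (-0.59, 0.00365) and the remodeller gene Hells (-0.36, 0.00874) were lower, and Atad2, a chromatin ATPase gene, was higher (0.33, 0.00116).

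Of 31 further genes of nucleotide supply, 8 were lower and 12 higher, against 29.9% and 29.0% of all genes tested, with a median of 0.09. Lower were Samhd1, which breaks down deoxynucleotides (-0.87, from 94.1, 101, 99.3 and 102 CPM to 53, 54.6, 55.9 and 53.1 CPM, adjusted p = 1.59e-10), and, in the folate cycle that feeds thymidylate synthase, Mthfd1 (-0.32, 4.63e-06) and Mthfd2 (-0.20, 0.00131). The purine synthesis genes Ppat, Pfas, Gart, Adsl and Atic were higher, at 0.39, 0.22, 0.16, 0.52 and 0.41, with adjusted p of 0.000297, 0.00322, 0.00185, 8.67e-06 and 1.76e-07, while Paics and Gmps of the same route had log2 fold changes of 0.05 and 0.03 and did not pass. Guk1, the guanylate kinase (0.56, 8.19e-07), Cmpk2, a mitochondrial nucleotide kinase that interferon is known to induce (0.79, 8.77e-06), and Ung, which removes uracil from DNA (1.15, from 0.933, 0.441, 1.05 and 1.11 CPM to 2.4, 1.83, 1.57 and 2.07 CPM, 0.00163), were also higher. Of these genes, Mthfd1, Mthfd2, Ppat, Pfas, Gart, Atic, Paics, Gmps and Rfc1 were chosen for naming after their values were seen.

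The replication genes and the genes of mitosis, which both rise in dividing cells, are set side by side here. All 20 listed mitosis genes were lower, 18 past 1.5-fold and 16 past 2-fold, against 29.9%, 9.64% and 3.89% of all genes tested. Their median log2 fold change was -1.28, against -0.06 for the 43 genes. The largest falls were those of Nusap1, a spindle protein (-2.52), Ccnb2 (-1.93), the kinase Plk1 (-1.83), the midzone protein Prc1 (-1.60) and the kinetochore motor Cenpe (-1.52), with adjusted p of 6.01e-08, 1.1e-08, 5.94e-07, 6.37e-09 and 4.83e-08. Within each library, the FPKM of Mki67, a marker of cycling cells, relative to Pcna was 0.0922 to 0.103 in GFP and 0.0323 to 0.0424 in the libraries labelled OEIRF7. The difference between the lists was described and not tested.

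**Figure D4:**
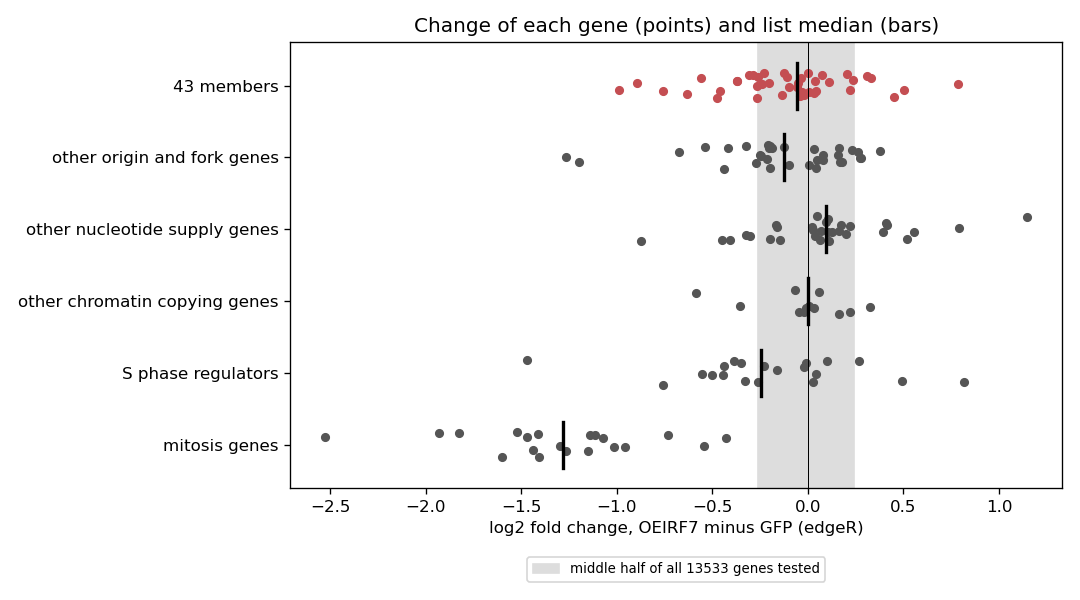
Log2 fold change (OEIRF7 minus GFP, horizontal axis) of each gene in 6 lists (points) with the list median (bar). The grey band holds the middle part of all 13533 genes tested, from -0.26 to 0.24. The 43 replication and nucleotide supply genes center on -0.06 and the mitosis genes on -1.28.

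Regulators of S phase entry were lower in 9 and higher in 3 of 20 genes, against 29.9% and 29.0% of all genes tested, with a median of -0.25. E2f1, an activating E2F factor, had 23.3, 24.2, 23.6 and 24.5 CPM in the GFP libraries and 24.7, 22.4, 23.5 and 24.4 CPM in the libraries labelled OEIRF7 and did not pass (-0.01, adjusted p = 0.887). Lower were the cyclin genes Ccna2 (-1.47, 7.08e-07) and Ccne1 (-0.76, 5.38e-05) and the repressor genes E2f7 (-0.55, 0.0226) and Rbl2 (-0.50, 1.97e-06), though the groups of E2f7 overlapped. Myc, a growth regulator, was higher (0.82, from 26.5, 24, 23.4 and 24.9 CPM to 43.3, 42.6, 39.3 and 49.3 CPM, 8.94e-08). Among 13 targets of p53, a factor that halts the cell cycle, 9 were lower and 2 higher, against the same shares of all genes, with a median of -0.21. Trp53inp1 (-1.57, 7.55e-12), Eda2r (-0.71, 1.88e-09), Sesn1 (-0.48, 0.000124) and Phlda3 (-0.32, 2e-05) were lower and Mdm2 (0.40, 1.02e-06) higher. Cdkn1a, the cyclin-dependent kinase inhibitor p21, was higher in all 4 libraries labelled OEIRF7, with 459, 448, 453 and 471 CPM against 546, 540.4, 569.9 and 562 CPM (0.28, 1.86e-06), and was chosen for naming after its values were seen. Rrm2b belongs both to these targets and to the genes of nucleotide supply.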

How the data were processed

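RNA-seq of 8 libraries of primary murine cardiac fibroblasts was used, 4 labelled GFP and 4 labelled OEIRF7, all treated with TGF-β. According to the methods, the authors trimmed reads with Trimmomatic and aligned them to GRCm38 by HISAT2. HTSeq-count then gave the raw count of each gene, as deposited. A second set of deposited values is FPKM, made by Cufflinks and scaled for gene length and depth. The strand setting of the counting was not given in the sources used here, and the labels and the methods differ on the extraction and library kits. Columns of group means, fold change, p-value and FDR of the authors' own comparison were not used.

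The 43 genes and all gene lists were chosen with earlier results of these data known. Counts were tested with edgeR 4.0.16 in R 4.3.3 (TMM scaling, filterByExpr, quasi-likelihood test of the groups without covariates, Benjamini-Hochberg adjustment over 13533 genes, threshold 0.05). CPM are reads per 1000000 counted reads of the tested genes in the library, with each library size scaled by its TMM factor. Intervals of 95% are the log2 fold change with its standard error times the t quantile of the fit. Library totals were 24454801 to 28658826, TMM factors 0.989 to 1.01 and the common biological coefficient of variation 0.0562. Any pair of libraries of a group differed beyond sampling noise (chi-square per degree of freedom 2.69 to 8.67). The fit was repeated with DESeq2 1.42.0, with library size as the only scaling, with every gene of at least 1 count in total, with replicate numbers as a block and with each library left out in turn. The FPKM were tested with limma 3.58.1, with a pseudocount of 1 or 0.1 before the log2, where their mean exceeded 0.1.

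By the rule for naming, every one of the 43 genes was accounted for, those with the largest and the smallest change in each role were given in full, and from each other list except those of cell type markers the 5 largest changes with an adjusted p under 0.05 and a mean above 1 CPM were named. Promoters of 6 of the 43 genes were printed, the 3 with the largest and the 3 with the smallest change among those with an E2F match. Per-library values of the other genes of the 43 were added after their values were seen. Gene coordinates came from the GENCODE M21 annotation of GRCm38, which held 22219 of the 22274 identifiers, and promoters from RefSeq.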

Additional observations from a re-analysis of the deposited data

Results flagged for a closer look

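In 2 of 86 groups of 4 libraries, over the 43 genes, 1 library lay far from the others by Dixon's test of the gap over the range of log2 CPM, and chance alone gives about 1 in 20 such groups. Rfc3, the clamp loader subunit, was lowest in replicate 2 of the libraries labelled OEIRF7, with 3.34 CPM against 4.54, 4.48 and 4.38 CPM (gap over range 0.885). Prim2, the primase subunit, was lowest in replicate 4 of the libraries labelled OEIRF7, with 12.2 CPM against 12.7, 12.6 and 12.7 CPM (gap over range 0.852). Neither gene passed the comparison of the groups with all 8 libraries, and neither passed under any alternative.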

How the results depend on the processing

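No gene of the 43 changed direction with a call under any alternative tried. With limma on log2(FPKM + 1) and on log2(FPKM + 0.1), 9 of the 43 genes were lower in place of 15 and 8 higher in place of 6, and the cause was not tested. Of all 14182 genes tested with limma, 3309 and 3312 were lower and 4093 and 4096 higher. The main fit gave 4045 lower and 3924 higher of 13533. Without scaling beyond library size 14 were lower and 7 higher, and with DESeq2 or with a minimum of 1 count in total 14 and 6. Of all 13533 genes, 3728 were lower and 4346 higher without that scaling, and 3908 and 3847 with DESeq2. With a minimum of 1 count in total, 4104 of 18458 genes were lower and 4004 higher. Leaving out 1 library at a time gave 11 to 15 lower, fewest without GFP replicate 3, and 5 to 7 higher. Over all genes these fits gave 3818 to 3962 lower and 3688 to 3871 higher, of 13634 to 13701 tested. Leaving out 1 library also moved the median log2 fold change of the 43 genes, -0.06 with all libraries, to between -0.10 (without GFP replicate 1) and -0.067 (without GFP replicate 4). This median was -0.03 without scaling beyond library size, -0.02 with limma on log2(FPKM + 1) and -0.04 with log2(FPKM + 0.1). With the pseudocount of 1, which shrinks the changes of low genes, the mitosis median was -0.71. The share of windows with an E2F motif was 11.9% for the 43 genes and 0.0974% for all promoters when 2 matches were required. Libraries of the groups share only replicate numbers. The correlations of same-numbered deviations were 0.0792, 0.0953, 0.138 and 0.104, and each library correlated best with its own number. With the replicate block, 14 genes were lower and 6 higher, Mcm10 being lost (adjusted p = 0.0628), and 4154 and 4057 of all genes passed. A 1.5-fold rise of Gins1 (mean 0.554 CPM in GFP) or Pole2 (1.42 CPM) was not excluded in these libraries, since their intervals reached past it.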
